A study of Ovis aries with 12 samples.

Results

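Molecular chaperones and heat shock proteins were followed in the longissimus dorsi, a loin muscle, of 12 lambs. The members were all probe sets of a bovine expression array whose single gene symbol begins with HSPA, HSPB, HSPD, HSPE, HSPH, HSP90 or DNAJ, or with BAG or CCT and a digit. This gave 91 probe sets of 24016 without controls, for 59 genes, and each gene was represented by its brightest probe set. Of the 59 genes, 54 passed a filter that left out the dimmer part of the array, and these were tested among 12008 probe sets. The 6 groups joined genotype, callipyge (labelled +/CLPG) or normal wild-type (+/+), to an age of 10, 20 or 30 days, with 2 lambs and so 2 arrays in each. All lambs were left with their dams until shortly before euthanasia. The prefix HSPB also took in HSPBP1 and HSPBAP1, which are named for binding another chaperone and are not small heat shock proteins. TCP1, a subunit of the CCT ring, and CRYAB, a small heat shock protein by structure, lie outside the rule by name.

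Chaperones hold unfolded proteins, help them fold, or hand them over for breakdown. The HSP70 proteins (HSPA) bind short stretches of unfolded chain in a cycle driven by ATP. In this cycle DNAJ proteins deliver the client and start the hydrolysis, and HSPH and some BAG proteins release the nucleotide. HSP90 proteins act later, on nearly folded clients such as kinases, receptors and myosin, while the CCT ring encloses actin and tubulin as they fold and HSPD1 with HSPE1 does a like task inside mitochondria. Small heat shock proteins (HSPB) are abundant in striated muscle, where they bind to the contractile and cytoskeletal filaments under strain. In muscle, BAG3 joins HSPB8 and HSPA8 in a complex that removes damaged filament proteins. Callipyge is an inherited enlargement of the muscles of the loin and hindquarters that appears after birth, and the comparison of genotypes asks which genes differ as it sets in.

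Values are log2 of the scaled array signal plus 16, called log2 signal below, and a difference is callipyge minus normal unless said otherwise. The probes were made for cattle and read RNA of sheep, and precision is limited by how few arrays there are. Before scaling, trimmed mean signals lay between 55.7 and 105.7, with a log2 difference of -0.22 between callipyge and normal lambs. Without scaling, the median difference of all tested probe sets was -0.19, against -0.01 with scaling, so each difference is read relative to all probe sets. Of 11 skeletal muscle markers on the array, including ACTA1, CKM and MYH1, all 11 passed the filter, and their summed signal was 80500 to 94500 in callipyge and 74100 to 95700 in normal lambs. None passed for genotype, and 7 of the 11 lay above 0, with a median of 0.05. At an unadjusted p under 0.05, 0 lay higher and 2 lay lower in callipyge lambs. These were MB, the oxygen store of muscle, at -0.61 and the filament gene DES at -0.31. The replicate 2 arrays of both genotypes at 30 days had the lowest mean correlations with the other arrays, 0.953 and 0.951, and the main counts and list medians are also given without them. In whole muscle, fewer cells of a type and less RNA per cell cannot be told apart.

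Averaged over the 3 ages, no chaperone passed the test for genotype, and members that lay higher in callipyge muscle outnumbered those that lay lower, in small steps and not under every setting. After adjustment over all 12008 probe sets with limma, 0 of 54 members passed (0.883% of all tested probe sets did), and ordinary least squares also gave 0. At an unadjusted p under 0.05 there were 18 members, 33.3% of those tested, against 11.8% of all tested probe sets. Of these 18, 13 lay higher in callipyge muscle (5.81% of all tested probe sets did) and 5 lay lower (5.95%). The 13 were BAG2, BAG3, CCT2, CCT3, CCT5, CCT6A, DNAJA1, HSP90AA1, HSPA8, HSPB1, HSPB6, HSPB8 and HSPH1, and the 5 were DNAJA3, DNAJB6, DNAJC19, DNAJC7 and HSPA12B. All 18 kept their sign under each of the alternative scalings, filters, pseudocounts and left-out arrays that were run. Their unadjusted p did not: with no scaling 1 member, CCT6A, was higher and 11 were lower at that level, and without both 30 day replicate 2 arrays 8 were higher and 4 lower. Without normal 20 day replicate 2, 8 were higher. Shares of all tested probe sets at that level are not given for these settings, so these counts are not compared with the whole array. In all, 33 of 54 members lay above 0, or 61.1%, against 47.5% of all tested probe sets. Without both 30 day replicate 2 arrays 28 did, or 51.9%. With no scaling 17 did, or 31.5%, against 16.6% of all. These 17 are the 13 named above with DNAJB11, DNAJB5, DNAJB9 and DNAJC5, so without scaling the genotype difference averaged over ages lay below 0 for every other tested member. The median of the 54 was 0.09, and that of all tested probe sets was -0.01. For 0 of 54 members did all 6 callipyge lambs lie above all 6 normal lambs (0.683% of all tested probe sets) and for 0 did they lie below (0.35%).

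**Figure D1:**
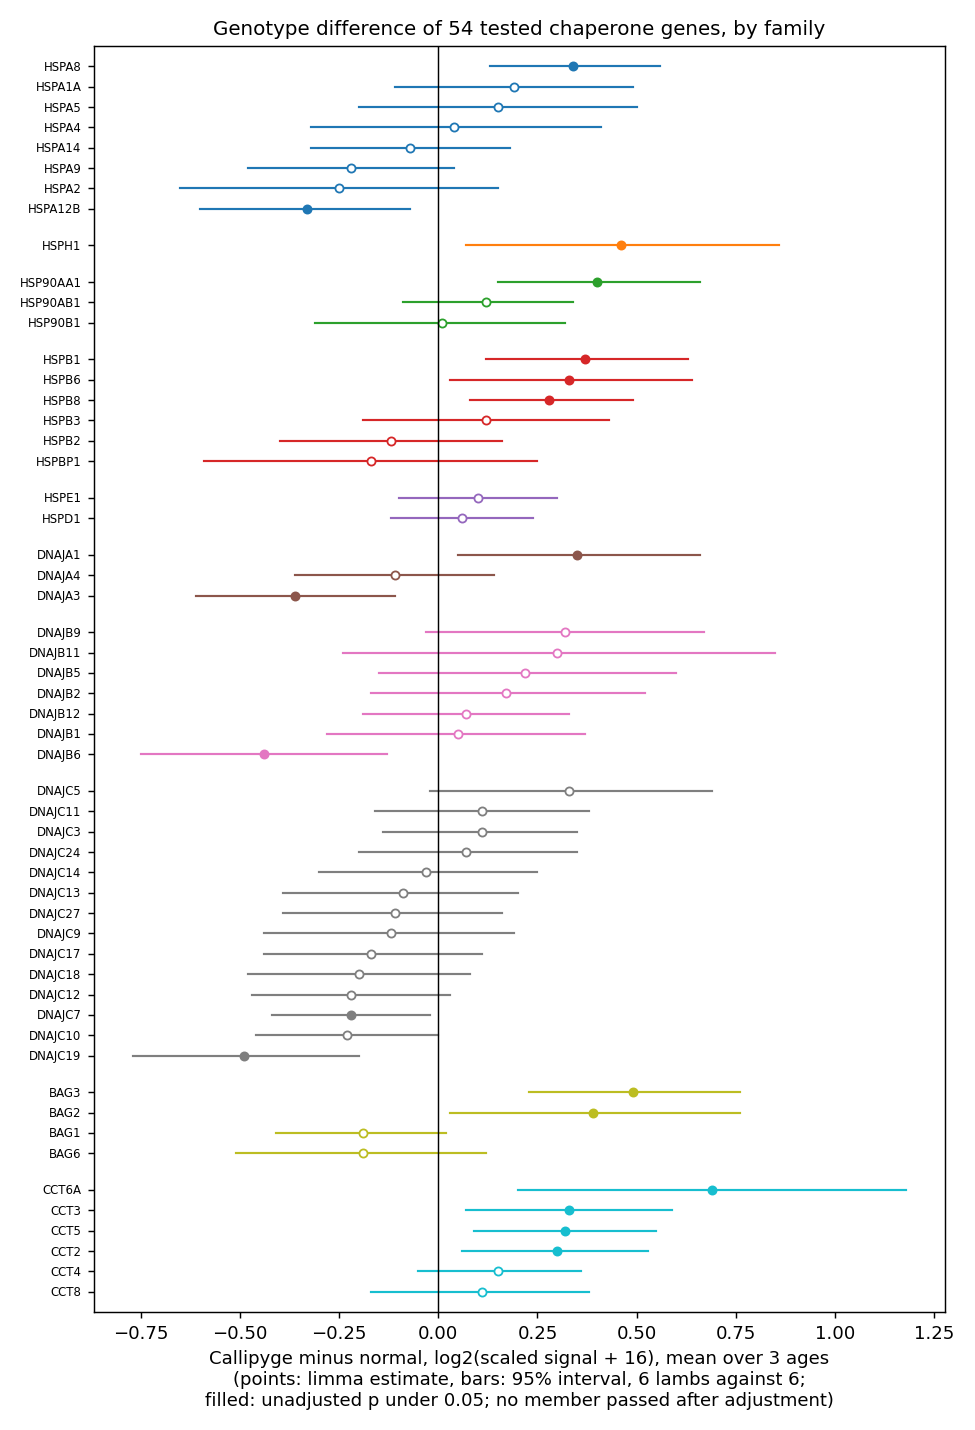
Genotype difference of the 54 tested members, grouped by family, in log2 signal (callipyge minus normal, averaged over 3 ages); points are limma estimates, bars 95% intervals, and filled points have an unadjusted p under 0.05. The points of all 6 CCT genes lie right of 0, from 0.11 to 0.69, while 10 of the 14 DNAJC genes lie left of 0.

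BAG3, the muscle co-chaperone that links HSP70 to HSPB8, had the smallest p of the members for genotype. Its log2 signal in callipyge lambs was 9.87 and 9.97 at 10 days, 9.50 and 9.72 at 20 days, and 9.86 and 10.17 at 30 days. In normal lambs it was 9.50 and 9.31, 9.30 and 8.64, and 9.67 and 9.71 at the same ages. All 6 callipyge lambs thus lay above both age-matched normal lambs, while across ages the genotypes overlapped. The share of all tested probe sets with such age-matched separation is not given, so such separation is only described, here and below. The means were 9.85 ± 0.23 (SD, n = 6) and 9.35 ± 0.39, a difference of 0.49 ± 0.12 (SE), or 1.41-fold, with a 95% interval of 0.23 to 0.76 (adjusted p = 0.0984). With 1 array left out the difference ran from 0.38 to 0.60, and was largest without normal 20 day replicate 1, the higher of its pair. It was 0.27 without scaling.

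The other members of the BAG family did not lie to 1 side. BAG2, an inhibitor of the ubiquitin ligase that works with HSP70, stood at 0.39 ± 0.17 (adjusted p = 0.376) in its brighter probe set. A dimmer probe set of the same gene gave -0.58 ± 0.24 (adjusted p = 0.356), so the direction of BAG2 depends on the probe set. BAG1 stood at -0.19 ± 0.10 and BAG6, which guards membrane proteins on their way to the endoplasmic reticulum, at -0.19 ± 0.15. The median of the 4 tested BAG genes was 0.10, but it was -0.11 with no scaling and -0.19 over all their tested probe sets.

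Among HSP70 proteins, HSPA8, the constitutive form of the cytosol, had the smallest p for genotype. Its log2 signal was 11.44 and 11.62 at 10 days, 11.44 and 11.31 at 20 days and 11.41 and 11.44 at 30 days in callipyge lambs. Normal lambs gave 11.05 and 11.49, 11.10 and 11.01, and 11.17 and 10.80. The callipyge lambs kept within a narrow band from 11.31 to 11.62, and 5 of 6 lay above both age-matched normal lambs. The means were 11.44 ± 0.10 (SD, n = 6) and 11.10 ± 0.23, and the difference was 0.34 ± 0.10 (95% interval 0.13 to 0.56, adjusted p = 0.167), or 0.12 with no scaling.

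HSPA1A, the stress-inducible HSP70, showed another pattern. In callipyge lambs its log2 signal was 9.46 and 9.05, 8.80 and 9.36, and 9.43 and 9.23 at the 3 ages. In normal lambs it was 8.51 and 8.96, 8.68 and 8.58, and 9.95 and 9.52. Both callipyge lambs lay above both normal lambs at 10 and 20 days and below both at 30 days. The differences were 0.52, 0.45 and -0.40 (SE 0.24 each), and the mean over ages was 0.19 ± 0.14. The interaction of genotype and age had an unadjusted p of 0.0336, the smallest of the members, but an adjusted p of 0.992. The probe set used can read more than 1 transcript, since its probes are shared between transcripts, and HSPA1A has a near-identical neighbour copy. Of the other tested probe sets of the gene, the brightest gave 0.24 and the rest -0.27, -0.08 and 0.26.

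HSPA12B, a distant HSP70 relative found mostly in endothelial cells, lay lower in callipyge muscle at -0.33 ± 0.12 (adjusted p = 0.291). Its log2 signal ran from 6.36 to 6.82 in callipyge lambs and from 6.60 to 7.41 in normal lambs, with both values above 7 in normal lambs of 30 days. Of the endothelial markers, CDH5 stood at -0.23, PECAM1 at -0.22, TEK at -0.48 and VWF at 0.07, while KDR, at 0.05, lay below the filter. Of 7 tested markers of endothelium and smooth muscle, 2 lay above 0 (VWF and the smooth muscle gene CNN1), 1 lay lower at an unadjusted p under 0.05 (TEK) and 0 passed, and their summed signal was 2660 to 3860 in callipyge and 2950 to 5050 in normal lambs. The part of these cells in the value of HSPA12B was not tested. HSPA9, the mitochondrial HSP70, stood at -0.22 ± 0.12, and in 5 of 6 callipyge lambs it lay below both age-matched normal lambs. HSPA5, the HSP70 of the endoplasmic reticulum, stood at 0.15 ± 0.16, HSPA2 at -0.25 ± 0.19, HSPA4 at 0.04 ± 0.17 and HSPA14, which works at the ribosome, at -0.07 ± 0.12. The family was thus split, with 4 of 8 above 0 and a median of -0.01 (-0.23 with no scaling).

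HSPH1, a large relative of HSP70 that exchanges its nucleotide, stood at 0.46 ± 0.18 (95% interval 0.07 to 0.86, adjusted p = 0.333). Its log2 signal ran from 6.70 to 7.83 in callipyge and from 6.25 to 7.31 in normal lambs. At 10 days it was 7.83 and 7.18 against 6.42 and 6.85, so both callipyge lambs lay higher, and at 20 and 30 days the genotypes overlapped. The other tested probe sets of HSPH1 gave 0.23 and 0.54, to the same side.

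The DNAJ proteins, which bring clients to HSP70, were the most numerous members, with 24 tested of 26, and 11 of the 24 lay above 0. DNAJA1, the main farnesylated partner of HSPA8 in the cytosol, stood at 0.35 ± 0.14 (adjusted p = 0.337), and 5 of 6 callipyge lambs lay above both age-matched normal lambs. DNAJA3, the partner of HSPA9 in mitochondria, lay the other way at -0.36 ± 0.12 (95% interval -0.61 to -0.11, adjusted p = 0.215). Its log2 signal was 6.60 and 6.46, 6.02 and 6.36, and 6.30 and 6.46 in callipyge lambs, and 6.83 and 6.69, 6.80 and 6.58, and 6.71 and 6.75 in normal lambs. All 6 callipyge lambs lay below both age-matched normal lambs for this gene, and the whole genotypes overlapped only at 6.60 against 6.58.

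DNAJC19, a J protein of the import motor of the inner mitochondrial membrane, had the smallest p among members that lay lower. Its log2 signal was 9.04 and 9.18, 9.00 and 9.37, and 8.90 and 9.23 in callipyge lambs, and 9.45 and 9.35, 9.79 and 9.70, and 10.03 and 9.32 in normal lambs. All 6 callipyge lambs lay below both age-matched normal lambs. The means were 9.12 ± 0.17 (SD, n = 6) and 9.61 ± 0.28, and normal muscle was 1.40-fold higher (difference -0.49 ± 0.13, 95% interval -0.77 to -0.20, adjusted p = 0.128). With 1 array left out the difference ran from -0.60, without normal 30 day replicate 2, to -0.37. It was -0.71 without scaling.

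DNAJC7, a partner of both HSP70 and HSP90, stood at -0.22 ± 0.09 (adjusted p = 0.371), and DNAJC10, a J protein of the endoplasmic reticulum that reduces disulfide bonds, at -0.23 ± 0.11. For both of them all 6 callipyge lambs lay below both age-matched normal lambs, though 1 pair of DNAJC7 at 30 days was level at 9.46. A dimmer probe set of DNAJC7 gave -0.34 and one of DNAJC10 gave 0.00. DNAJC5, the cysteine string protein of secretory vesicles, lay on the other side at 0.33 ± 0.16. In the DNAJC class 10 of 14 tested genes lay below 0, with a median of -0.12, and -0.29 with no scaling. The medians at 10, 20 and 30 days were -0.28, -0.05 and -0.01, against -0.01, 0.01 and -0.02 for all tested probe sets.

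In the DNAJB class 6 of 7 genes lay above 0, with a median of 0.17 (-0.01 with no scaling, where 3 lay above 0). The exception was DNAJB6, a suppressor of aggregation that is mutated in a limb-girdle muscular dystrophy. It stood at -0.44 ± 0.14 (95% interval -0.75 to -0.13, adjusted p = 0.222). Its log2 signal was 6.72 and 7.23, 7.58 and 7.02, and 7.07 and 7.22 in callipyge lambs and 7.19 and 7.59, 7.80 and 7.80, and 7.67 and 7.42 in normal lambs. The difference was similar in size at the 3 ages, at -0.42, -0.50 and -0.40. DNAJB9, a cofactor of HSPA5 induced by endoplasmic reticulum stress, stood at 0.32 ± 0.16, and DNAJB5 at 0.22 ± 0.17 (0.00 with no scaling). DNAJB1, the J protein most strongly induced by heat, stood at 0.05 ± 0.15, with a 95% interval of -0.28 to 0.37.

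**Figure D2:**
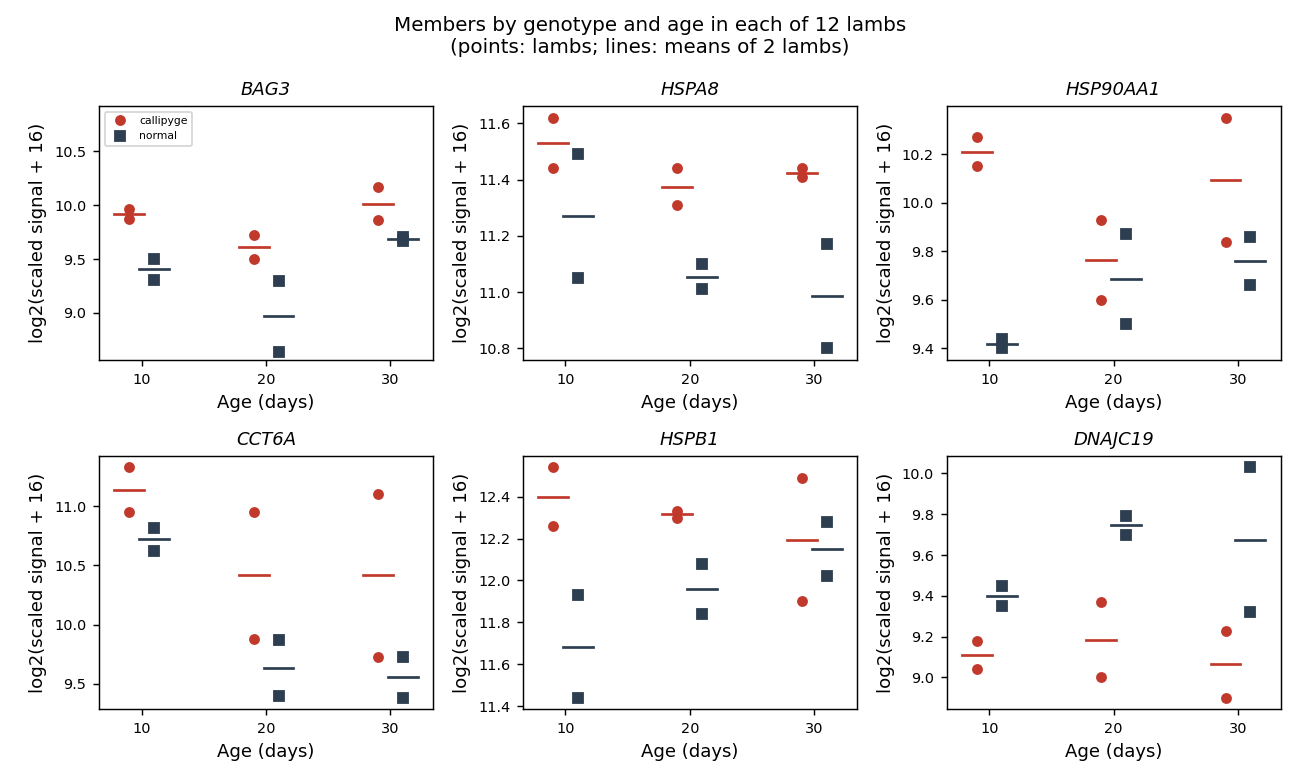
Log2 signal of 6 members in each of the 12 lambs against age in days; circles are callipyge and squares normal lambs, and lines are means of 2 lambs. BAG3 lies higher and DNAJC19 lower in callipyge lambs at every age, HSP90AA1 and HSPB1 are farthest apart at 10 days, and CCT6A spreads widely within groups.

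The HSP90 proteins differed among themselves. HSP90AA1, the inducible cytosolic form, which in muscle takes part in folding myosin, gave a log2 signal of 10.27 and 10.15, 9.93 and 9.60, and 9.84 and 10.35 in callipyge lambs. Normal lambs gave 9.40 and 9.44, 9.87 and 9.50, and 9.86 and 9.66. The genotypes were apart at 10 days and overlapped at 20 and 30 days. The difference was 0.40 ± 0.12 over the ages (95% interval 0.15 to 0.66, adjusted p = 0.172; 0.18 with no scaling). At 10 days alone it was 0.79 ± 0.20, with the smallest unadjusted p of the members in that comparison, 0.00201 (adjusted p = 0.225). A dimmer probe set of HSP90AA1 gave 0.49 ± 0.13 (adjusted p = 0.13). HSP90AB1, the constitutive cytosolic form, stood at 0.12 ± 0.10 (95% interval -0.09 to 0.34) and at -0.10 with no scaling, and HSP90B1, the form of the endoplasmic reticulum, at 0.01 ± 0.15. Genes that assist HSP90 were read as a list, which shares AHSA1, CHORDC1, FKBP4 and STIP1 with the heat shock factor targets below. Of 13 tested, 0 passed and 10 lay above 0, where 47.5% of all tested probe sets did. The median was 0.17 (-0.05 with no scaling, or 0.14 above all probe sets there). Without both 30 day replicate 2 arrays 9 of 12 lay above 0, with a median of 0.08, and without callipyge 30 day replicate 2 alone the median was 0.09. STIP1, the bridge from HSP70 to HSP90, stood at 0.50 ± 0.13 (adjusted p = 0.106) and SUGT1 at 0.39 ± 0.09 (adjusted p = 0.0875). PTGES3, the p23 co-chaperone, stood at 0.23 ± 0.08, UNC45B, the myosin chaperone of striated muscle, at 0.17 ± 0.11, and FKBP5, which is induced by glucocorticoids, at -0.43 ± 0.15.

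Of the small heat shock proteins, 3 lay higher at an unadjusted p under 0.05. HSPB1 had a log2 signal of 12.54 and 12.26, 12.30 and 12.33, and 11.90 and 12.49 in callipyge lambs and 11.44 and 11.93, 12.08 and 11.84, and 12.02 and 12.28 in normal lambs. Callipyge lambs lay above both normal lambs at 10 and 20 days, and at 30 days the genotypes overlapped. The difference was 0.37 ± 0.12 (95% interval 0.12 to 0.63, adjusted p = 0.214), made up of 0.72, 0.36 and 0.04 at the 3 ages, and with no scaling it was 0.15. HSPB8, the partner of BAG3, stood at 0.28 ± 0.10 (adjusted p = 0.249), and 5 of 6 callipyge lambs lay above both age-matched normal lambs. HSPB6, a small heat shock protein of muscle that is phosphorylated in response to cyclic nucleotides, stood at 0.33 ± 0.14 (adjusted p = 0.369), with 0.14, 0.31 and 0.54 at the 3 ages. HSPB2 stood at -0.12 ± 0.13 and HSPB3, which pairs with HSPB2 in muscle, at 0.12 ± 0.14 (-0.08 with no scaling). CRYAB, outside the rule, stood at 0.29 ± 0.18 (adjusted p = 0.565). The median of the 6 tested HSPB genes was 0.20, and -0.01 with no scaling, and it was 0.28 without HSPBP1.

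All 6 tested subunits of the CCT ring lay above 0, with a median of 0.31. Without scaling it was 0.09 and 4 of 6 lay above 0, where CCT4 stood at -0.07 and CCT8 at -0.11. CCT6A had the widest difference, 0.69 ± 0.23 (95% interval 0.20 to 1.18, adjusted p = 0.234). Its log2 signal was 11.33 and 10.95, 10.95 and 9.88, and 9.73 and 11.10 in callipyge lambs and 10.62 and 10.82, 9.87 and 9.40, and 9.73 and 9.38 in normal lambs. Replicates of callipyge lambs at 20 and 30 days lay more than 1 unit apart, and 1 callipyge lamb at each of these ages was level with the higher normal lamb. With 1 array left out the difference ran from 0.46 to 0.92, and was largest without callipyge 30 day replicate 1, the lower of its pair. CCT5 stood at 0.32 ± 0.11, CCT2 at 0.30 ± 0.11, CCT3 at 0.33 ± 0.12, CCT4 at 0.15 ± 0.10 and CCT8 at 0.11 ± 0.13. CCT3 had an unadjusted interaction p of 0.0395, with 0.66, -0.15 and 0.48 at the 3 ages. Prefoldin, which passes nascent actin and tubulin to the ring, did not lie to the same side: PFDN2 stood at -0.44 ± 0.19 and PFDN6 at -0.35 ± 0.15, and neither passed. PFDN1 stood at -0.19, PFDN5 at -0.08 and VBP1 at -0.00. Of the 12 tested genes on the list of ring and prefoldin, 7 lay above 0, the 6 CCT genes and PDCL3, a phosducin-like protein, at 0.05. Without both 30 day replicate 2 arrays 6 of 12 did, and with no scaling 4, where 7 of 12 lay above the median of all probe sets.

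The mitochondrial chaperonin HSPD1 and its lid HSPE1 stood at 0.06 ± 0.08 and 0.10 ± 0.09, with 95% intervals of -0.12 to 0.24 and -0.10 to 0.30, and at -0.16 and -0.12 with no scaling. These were among the smallest standard errors of the members. Read by compartment, of 10 mitochondrial folding and import genes 4 lay above 0 and 0 passed, with a median of -0.06 (-0.13 when normal 30 day replicate 2 was left out, and -0.24 with no scaling, where 0 of 10 lay above 0). At an unadjusted p under 0.05, 0 lay higher and 2 lower, DNAJC19 and DNAJA3. Relative to all probe sets, the unscaled median of this list was -0.05, with 5 of 10 genes above the median of all. Of 17 tested genes of folding in the endoplasmic reticulum 10 lay above 0 and 0 passed, with a median of 0.08. Only 7 of 17 lay above 0 without both 30 day replicate 2 arrays, with a median of -0.01, and 3 with no scaling, with a median of -0.13. Relative to all probe sets, that unscaled median was 0.06, with 9 of 17 genes above the median of all. Leaving out 1 array brought the scaled median to 0.00 for normal 30 day replicate 2, 0.02 for callipyge 30 day replicate 2, 0.02 for callipyge 10 day replicate 1, and 0.04 for callipyge 20 day replicate 1. Only ATF4, a transcription factor of the stress response, had an unadjusted p under 0.05 in that list, at 0.38 ± 0.12 (adjusted p = 0.206).

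Genes that are induced through heat shock factors lay higher as a list. Of 19 tested, 14 of them members by the rule, 18 lay above 0, where 47.5% of all tested probe sets did. The median was 0.26, and 0 passed after adjustment. At an unadjusted p under 0.05, 8 lay higher (5.81% of all tested probe sets did) and 0 lower (5.95%). Only STIP1 of these 8 is outside the rule, and the others are members already named above as higher at that level. The count is thus largely not separate from that of the members. At 10, 20 and 30 days the medians were 0.36, 0.08 and 0.25, with 18, 13 and 16 of 19 above 0. With no scaling 11 lay above 0, while 18 lay above the median of all probe sets, by 0.25 in the median. Without both 30 day replicate 2 arrays 15 lay above 0, with a median of 0.17. With 1 array left out the count at an unadjusted p under 0.05 ran from 6 to 11. The exception was DNAJA4 at -0.11 ± 0.11. The factors themselves stood at -0.17 ± 0.15 for HSF1 and 0.15 ± 0.14 for HSF2. Of the 6 tested genes of BAG3-assisted removal of filament proteins, all 6 lay above 0 with scaling, 5 with quantile normalization, 3 with no scaling and 4 to 6 with 1 array left out, and 0 passed. Without normal 30 day replicate 1, 4 did. The median was 0.21 (-0.00 with no scaling, or 0.19 above all probe sets there). Beside the members BAG3, HSPB8 and HSPA8, this list held SQSTM1 at 0.14 ± 0.12 and, nearer 0, the filament protein FLNC at 0.03 ± 0.12 and the ubiquitin ligase STUB1 at 0.03 ± 0.14.

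**Figure D3:**
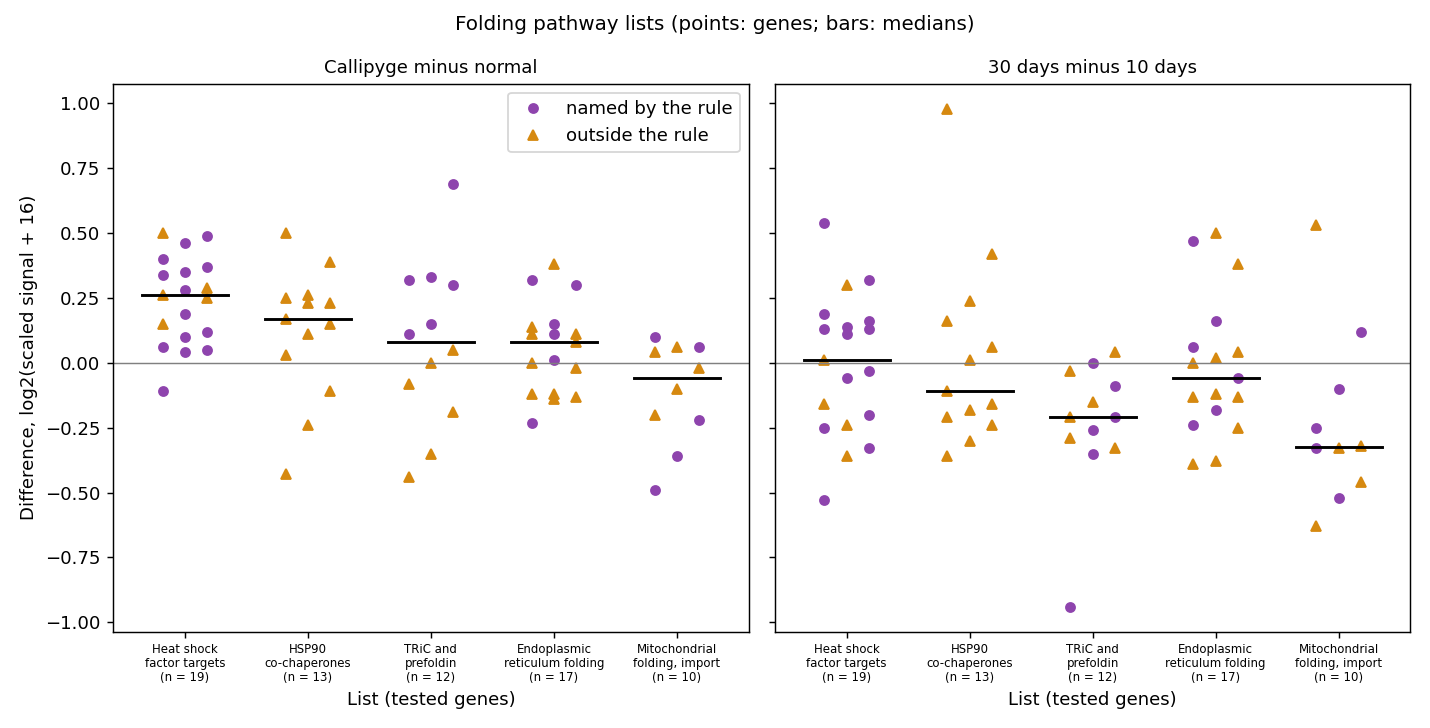
Difference in log2 signal of tested genes in 5 folding lists, by genotype on the left (callipyge minus normal) and by age on the right (30 minus 10 days); circles are members by the rule, triangles other genes, and bars medians. By genotype 18 of 19 heat shock factor targets lie above 0, and by age 8 of 10 mitochondrial genes lie below 0.

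At single ages no member passed for genotype with limma or with ordinary least squares. At 10 days 0 of 54 passed (0.0666% of all tested probe sets did), and 9 had an unadjusted p under 0.05 (8.82% of all), 6 higher (4.34%) and 3 lower (4.48%). At that age 32 members lay above 0 (48.6% of all). At 20 days 0 passed (0.0333%) and 6 had an unadjusted p under 0.05 (6.15%), 3 higher (3.04%) and 3 lower (3.11%), with 31 members above 0 (51.4%). CCT5 had the smallest p at 20 days, at 0.61 ± 0.18 (adjusted p = 0.617). At 30 days 0 passed (0.05%) and 7 had an unadjusted p under 0.05 (7.6%), 5 higher (3.63%) and 2 lower (3.97%), with 33 members above 0 (47%). HSPA12B had the smallest p at 30 days, at -0.62 ± 0.21 (adjusted p = 0.537). For the interaction of genotype and age 0 passed, as for all tested probe sets (0%), and 2 members had an unadjusted p under 0.05 (4.75% of all). The sign of the difference was the same at all 3 ages for 26 of 54 members, or 48.1%, against 33.5% of all tested probe sets. BAG3, HSPA8, HSPB8, CCT2, DNAJB6, DNAJA3 and DNAJC19 were among these 26.

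**Figure D4:**
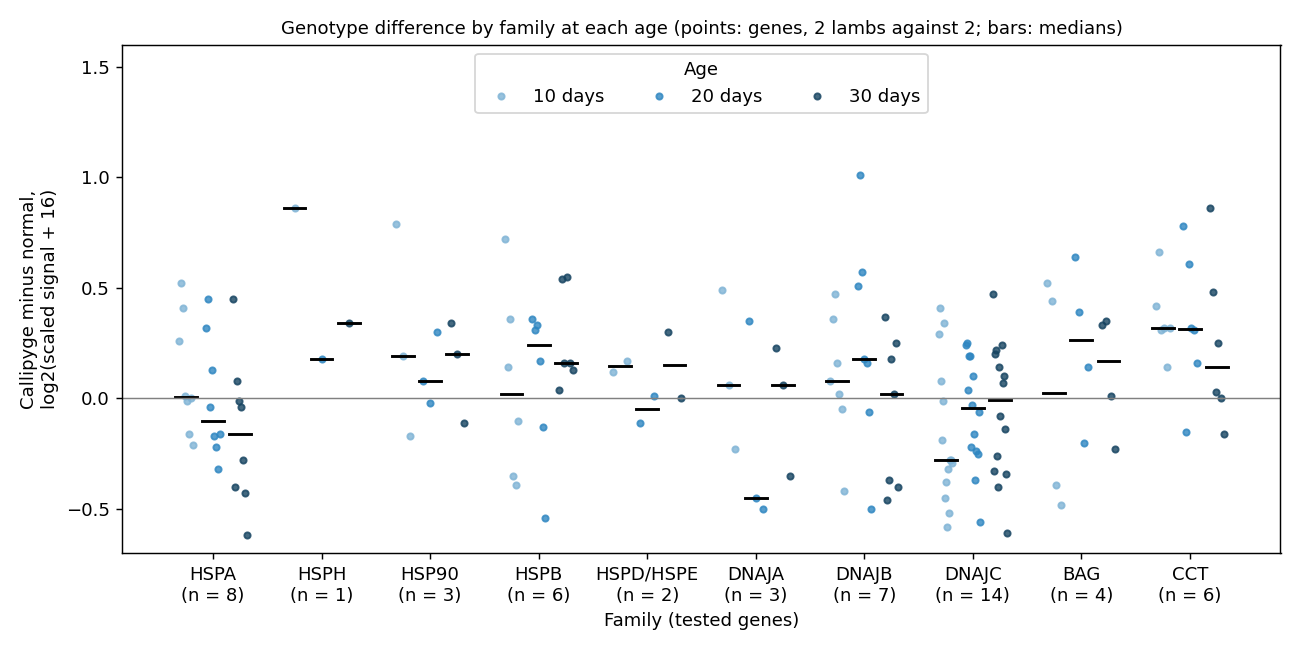
Genotype difference in log2 signal of each tested member at 10, 20 and 30 days, by family; points are genes (2 lambs against 2) and bars are family medians. The CCT medians are 0.32, 0.31 and 0.14, and the DNAJC medians -0.28, -0.05 and -0.01.

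The families were compared by their medians and counts, and differences between families were not tested. At 10 days the CCT median was 0.32, at 20 days 0.31 and at 30 days 0.14, with 6, 5 and 5 of 6 genes above 0. For HSPA the medians were 0.01, -0.10 and -0.16, for HSPB 0.02, 0.24 and 0.16, for HSP90 0.19, 0.08 and 0.20, and for DNAJB 0.08, 0.18 and 0.02. The standard error of a single gene's difference at 1 age ran from 0.14 for HSPD1 to 0.39 for CCT6A and 0.44 for DNAJB11. Relative to all probe sets, the medians over ages were 0.32 for CCT, 0.22 for HSPB, 0.18 for DNAJB, 0.13 for HSP90, -0.10 for DNAJA and -0.11 for DNAJC with scaling. With no scaling they were 0.28, 0.18, 0.18, 0.09, -0.13 and -0.10. For HSPA, HSPD/HSPE and BAG they were -0.00, 0.09 and 0.11 with scaling, and -0.04, 0.05 and 0.08 without.

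Age was compared next, averaged over genotypes. From 10 to 30 days 0 of 54 members passed (1.83% of all tested probe sets did), and over the 3 ages 0 passed (0.849%), with 14 at an unadjusted p under 0.05 in either comparison (16.4% and 13.6% of all). Ordinary least squares called 1 member from 10 to 30 days, DNAJC12. At an unadjusted p under 0.05 from 10 to 30 days, 11 members lay lower at 30 days (8.74% of all tested probe sets) and 3 higher (7.62%), and 23 of 54 lay above 0 (50.4% of all). Without scaling, the median of all tested probe sets moved to 0.24 in this comparison, and 1 member was lower and 12 were higher at that level. Without callipyge 30 day replicate 1, 7 were lower and 5 higher, and without normal 30 day replicate 1, 5 were higher. The matching shares of all tested probe sets are not given for these settings, so the counts are not compared with the whole array.

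The members with the smallest p for this change lay lower at 30 days. HSPA14 had a mean log2 signal of 8.13 ± 0.04 (SD, n = 4) at 10 days, 7.88 ± 0.23 at 20 days and 7.58 ± 0.08 at 30 days, and all lambs of 10 days lay above all of 30 days. The difference of 30 minus 10 days was -0.55 ± 0.14 (adjusted p = 0.0739). A dimmer probe set of the same gene gave -0.16 (adjusted p = 0.621). HSPB3 stood at -0.68 (adjusted p = 0.0765), with 8.19 and 8.20 in normal lambs of 10 days against 7.18 and 6.95 at 30 days. In callipyge lambs 1 of the 2 of 30 days, at 7.24, lay below both of 10 days, at 7.89 and 7.80, and the other lay above them. DNAJA4 stood at -0.53 (adjusted p = 0.0796), DNAJC12 at -0.50 (adjusted p = 0.093), HSPA9 at -0.52 (adjusted p = 0.0981) and CCT6A at -0.94 (adjusted p = 0.112). DNAJA4 was the exception among heat shock factor targets by genotype only, as 9 of those 19 genes lay below 0 from 10 to 30 days. Without callipyge 30 day replicate 2 both HSPB3 and CCT6A passed, and without callipyge 30 day replicate 1 HSPA9 passed. Unscaled differences were -0.26 for HSPA14, -0.40 for HSPB3, -0.25 for DNAJA4, -0.30 for DNAJC12, -0.22 for HSPA9 and -0.64 for CCT6A.

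HSPA1A lay the other way, at 0.54 from 10 to 30 days (adjusted p = 0.141), and had the smallest p of the members over the 3 ages, 0.00402 (adjusted p = 0.134). Its mean was 9.00 ± 0.39 (SD, n = 4) at 10 days, 8.85 ± 0.35 at 20 days and 9.54 ± 0.30 at 30 days. The highest values were those of the normal lambs at 30 days, 9.95 and 9.52, against 8.51 and 8.96 at 10 days. Callipyge lambs gave 9.46 and 9.05 at 10 days and 9.43 and 9.23 at 30 days, so in them the ages overlapped. The next brightest probe set of HSPA1A gave 0.40 from 10 to 30 days, and the others -0.22, -0.02 and -0.16. HSPA12B stood at 0.41 (adjusted p = 0.186) and DNAJC18 at 0.41 (adjusted p = 0.216). The mitochondrial list lay lower at 30 days in 8 of 10 genes, with a median of -0.32, and 0 passed. At an unadjusted p under 0.05, 6 lay lower (8.74% of all tested probe sets did) and 1 higher (7.62%), GRPEL2, a nucleotide exchange factor of HSPA9, at 0.53. HSPE1 stood at -0.33 (adjusted p = 0.164), HSPD1 at -0.25 (adjusted p = 0.234) and TRAP1, the mitochondrial HSP90, at -0.46 (adjusted p = 0.169), while DNAJC19 stood at 0.12 (adjusted p = 0.781). The unscaled median of this list was -0.04, or -0.28 below all probe sets, and 6 of 10 lay lower. All 6 CCT genes lay below 0 from 10 to 30 days, with CCT4 at -0.00 and a median of -0.23, which was 0.06 with no scaling.

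**Figure D5:**
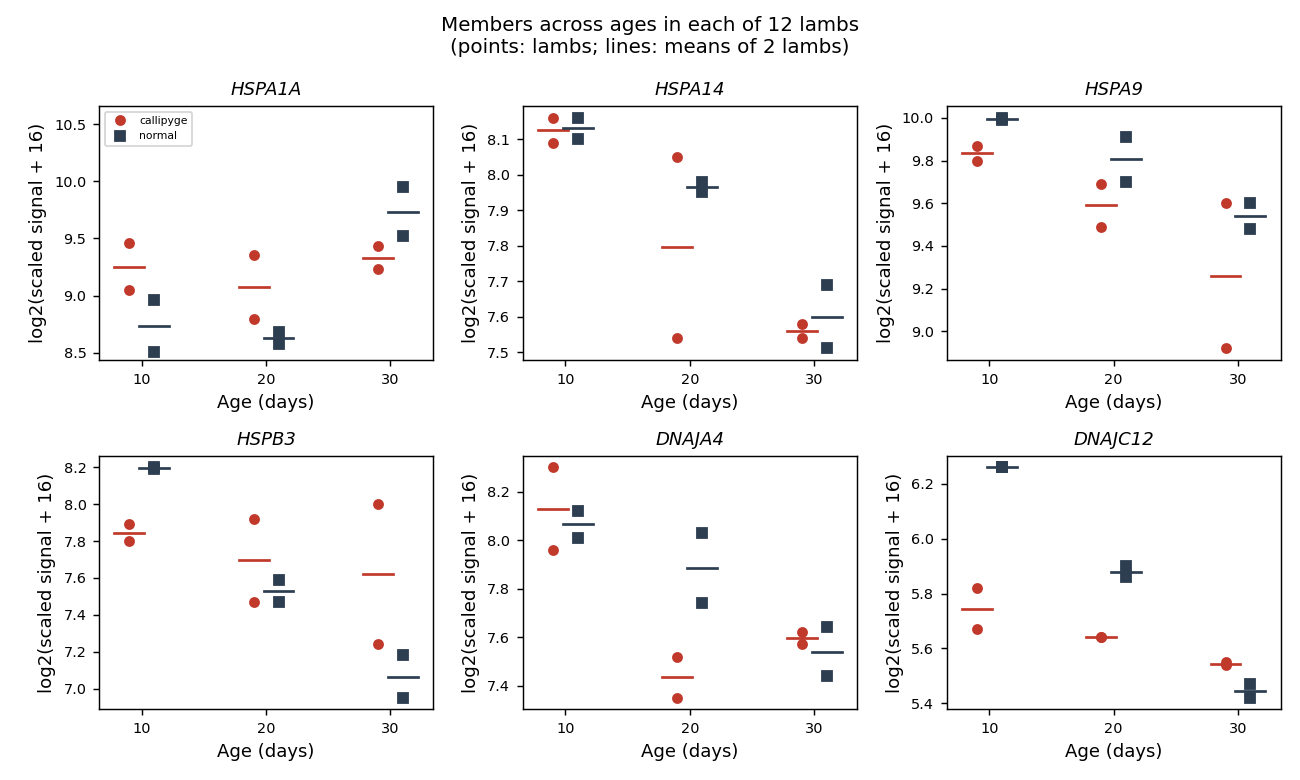
Log2 signal of 6 members in each of the 12 lambs against age in days; circles are callipyge and squares normal lambs, and lines are means of 2 lambs. HSPA14 and DNAJA4 have lower means at 30 than at 10 days in both genotypes, DNAJC12 starts higher in normal lambs, and HSPA1A is highest in normal lambs of 30 days.

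The extremes of the members were spread unevenly over the lambs. Callipyge 30 day replicate 2 had the highest value of all 12 lambs for 12 of 54 members, and callipyge 10 day replicate 1 for 10, against 9.94% and 8.04% of all tested probe sets. Normal 20 day replicate 2 had the lowest value for 11 members, against 9.19% of all tested probe sets. The mean log2 signal over the 54 members was 8.39 and 8.38 in the former 2 lambs and 8.10 in the latter, with the other 9 between 8.21 and 8.32.

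Of 20 genes with more than 1 probe set, 15 had more than 1 that passed the filter. Beyond those given above, HSPA4 stood at 0.04 in its brighter and 0.42 ± 0.15 (adjusted p = 0.289) in its dimmer probe set. DNAJB12 gave 0.07, 0.35 and 0.06, and DNAJC24 gave 0.07, 0.13 and 0.17. The brightest probe sets of DNAJC7, HSP90AB1 and HSPA1A are of the kind whose probes are shared between transcripts. The 5 members below the filter were BAG4, BAG5, DNAJC22, DNAJC6 and HSPBAP1, with mean log2 signals of 4.94, 5.18, 4.77, 4.73 and 4.59 against a median of 5.25 for all probe sets. Their genotype differences in a fit of all probe sets ran from -0.17 for DNAJC22 to 0.34 for BAG5, and none passed.

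Markers of other cell types ranged from bright to dim. The matrix gene COL3A1 had a mean log2 signal of 12.31, and the immune marker PTPRC one of 4.58. Of 7 tested fibroblast and matrix markers 3 lay above 0, with summed signals of 9300 to 12700 in callipyge and 9050 to 15400 in normal lambs. Of 3 tested erythroid markers 0 lay above 0 and 2 lay lower at an unadjusted p under 0.05, with sums of 157 to 239 and 197 to 315. The immune markers PTPRC, CD79A and TYROBP lay below the filter, and the 3 tested immune markers had a median of 0.07, with sums of 123 to 176 and 103 to 160 over all those on the array. The sums were 80.7 to 202 and 73.9 to 171 for adipocytes, where ADIPOQ and LEP were dim, 95 to 170 and 104 to 179 for nerve, and 141 to 252 and 116 to 244 for satellite cells and myoblasts. No marker in these lists passed for genotype, and their part in the chaperone values was not tested.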

How the data were processed

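The deposited values are linear array intensities, 1 for each probe set, produced by the authors with MAS5 under GCOS, per the submitters' processing notes; versions and scaling target are not given in the sources used here. The table held 24128 probe sets for 12 lambs, with 0 missing values. Each array was scaled to a common trimmed mean (2% left out at each end; target 79.2) and log2 of the scaled signal plus 16 was taken. The 112 controls and probe sets with a mean below the median (5.25) were left out. Gene symbols were those of the array annotation, in which 13292 probe sets had 1 symbol, 86 several and 10638 none. Of the 59 member symbols, 57 are symbols of the sheep RefSeq list; HSPA14 and HSPE1 kept the array's name.

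limma 3.58.1 in R 4.3.3 fitted a mean for each of 6 groups, with a variance trend (6 residual and 6.93 prior degrees of freedom) and Benjamini-Hochberg adjustment at 0.05. The model was run on simulated data, with planted genotype differences larger than any that a member showed averaged over ages. That run does not show whether differences of the size given here would be found. The members and lists were chosen with earlier results of these data known. Genes with values in the text are those with the smallest p or brightest probe set in each family, those with the smallest p for age, and listed genes; those named for small age p-values without passing, and those described for their probe sets or their pattern, were chosen after their values were seen. Figures used matplotlib 3.10.9. No sequences were used here. Alternatives were pseudocounts, filters, scalings, ordinary least squares, a threshold of 0.10, all probe sets, a replicate term and left-out arrays.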

Additional observations from a re-analysis of the deposited data

Results flagged for a closer look

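In 42 groups of 6 lambs (21 named members by 2 genotypes), 2 held a lamb far from the other 5, where chance flags about 1 in 20 groups. BAG2 was 6.90 in normal 20 day replicate 2, against 7.36 to 7.54 in the other normal lambs. HSP90AB1 was 10.02 in callipyge 20 day replicate 1, against 10.32 to 10.50 in the other callipyge lambs.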

How the results depend on the processing

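The number of members past the threshold stayed at 0 for genotype at 10, 20 and 30 days, for the interaction and for age over 3 ages under every alternative run. For genotype averaged over ages it was 1 at a threshold of 0.10 (BAG3), 1 without both 30 day replicate 2 arrays (DNAJC19), and 0 to 1 with 1 array left out. From 10 to 30 days it was 3 with a filter at the 75th percentile, which tests fewer genes, 1 with ordinary least squares, 5 at a threshold of 0.10, and 0 to 2 with 1 array left out. The number at an unadjusted p under 0.05, a count chosen after seeing the data, was 13 higher and 5 lower for genotype. It was 1 and 11 with no scaling, 8 and 8 with ordinary least squares, 8 higher without both 30 day replicate 2 arrays, and 8 to 15 higher and 4 to 6 lower with 1 array left out. From 10 to 30 days it was 3 higher and 11 lower, 12 and 1 with no scaling, and 2 to 5 higher and 7 to 12 lower with 1 array left out. For these unadjusted counts, the share of all tested probe sets is given only for the main setting. No scaling moved the family medians to -0.23 (HSPA), -0.10 (HSP90), -0.01 (HSPB), -0.14 (HSPD/HSPE), -0.32 (DNAJA), -0.01 (DNAJB), -0.29 (DNAJC), -0.11 (BAG), 0.09 (CCT) and -0.12 (all members), along with the median of all probe sets at -0.19. It turned CCT4 to -0.07, HSP90AB1 to -0.10, HSPD1 to -0.16 and HSPE1 to -0.12. Over all tested probe sets of each gene the BAG median was -0.19. With the replicate number as a block, 13 members were higher and 5 lower, and 0 passed. Deviations of same-numbered lambs were little correlated between groups (-0.06 to 0.11). The labels do not state that the numbers pair lambs, and these correlations cannot show whether they do. The other family medians moved by less than the spread between lambs. With 2 lambs in a group, single ages limit what can be seen, and dim probe sets sit near the pseudocount.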
